A study of Mus musculus with 9 samples.

Results

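The distal acetylated regions without H3K4me3 are places in the chromatin of mouse lung endothelial cells that carried 3 acetylation marks away from gene ends and lacked the methylation mark of promoters. A region of the H3K27ac list was a member when it lay more than 2 kb from both ends of every protein-coding gene, shared at least 1 base with a region of the H3K18ac list and of the H4K8ac list, and shared none with the H3K4me3 list. Of 112396 H3K27ac regions on chromosomes 1 to 19, X and Y, 34618 (30.8%) met this rule, among 1309635 regions of all 8 lists.

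The study profiled lung endothelial cells of wild-type (WT) mice by ACT-seq, in which an antibody against a histone mark brings the Tn5 transposase to the chromatin that carries it and the transposase tags the DNA there. The antibodies were against H3K9ac, H3K14ac, H3K18ac, H3K23ac, H3K27ac, H4K8ac, H2AK5ac and H3K4me3, and IgG served as the control. Each had 1 library of WT cells, so no value has a replicate error and no test was made. Intervals are 95% and cover counting error only, and regions are not replicates. The series title links the work to cystine use, histone acetylation and vascular growth and repair.

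Of the 9 libraries, IgG was the shallowest, with 365999 reads in the table, H3K14ac the deepest, with 10044130, and H3K27ac had 2533242. Every list had its highest fitted density in its own mark's library, from 13.4 CPM (counts scaled to the library total) per kb of bases it shared with no other list (H3K14ac) to 309 (H2AK5ac). Regions of several lists share a count, so these densities could not be counted directly. They are estimates from a non-negative least-squares fit of the joined counts on the unshared bases of each list. Lists are called by the library densest in them, so this lead follows from the naming and does not test it. In the H3K27ac list the density of its own library was 44.2, with IgG second at 22.3, the closest lead of the 8. The membership of regions in lists rests on the order of regions, as explained in the processing, and not on a record in the table.

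Enhancers are stretches of DNA away from promoters at which transcription factors gather and raise the transcription of genes on the same chromosome. Their nucleosomes are acetylated by enzymes such as p300 and CBP, which place H3K18ac and H3K27ac, and they usually carry little H3K4me3, the mark that the SET1 and MLL complexes place at active promoters. In endothelial cells, ETS factors such as ERG and FLI1, AP-1, SOX17 and GATA2 are known to occupy such elements. The members were chosen by the listed regions of 4 of these marks and by position, and the term enhancer was not applied to them here, since no activity was measured.

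Sequence was at hand for windows of 300 bases at annotated transcript starts, from 250 before to 50 after the start, from RefSeq on GRCm38.p6. Of 32851 such windows, 25 lay wholly inside a member. The 4 shown hold the letters TGANTCA, the core of the AP-1 motif, and 3 of them also hold ACAGGAA, an ETS core. Of the 25 windows, 13 hold TGANTCA, 5 hold ACAGGAA and 3 hold both, so every window with both is shown. The 4 are shown because these 2 motifs stood out among windows at members, as given further on. They were chosen after the values were seen. All 4 start long noncoding RNAs (lncRNAs) and are read 5′ to 3′ on the minus strand, and capitals mark TGANTCA and ACAGGAA on either strand.
Gm34948 (chr2:103896217-103896516, GRCm38.p6, minus strand): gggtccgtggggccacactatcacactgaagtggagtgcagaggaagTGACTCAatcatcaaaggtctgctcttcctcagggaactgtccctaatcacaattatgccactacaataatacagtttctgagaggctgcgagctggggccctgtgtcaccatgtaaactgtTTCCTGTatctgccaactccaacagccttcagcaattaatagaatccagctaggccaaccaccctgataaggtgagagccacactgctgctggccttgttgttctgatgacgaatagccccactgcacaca
Gm40007 (chr2:172276164-172276463, GRCm38.p6, minus strand): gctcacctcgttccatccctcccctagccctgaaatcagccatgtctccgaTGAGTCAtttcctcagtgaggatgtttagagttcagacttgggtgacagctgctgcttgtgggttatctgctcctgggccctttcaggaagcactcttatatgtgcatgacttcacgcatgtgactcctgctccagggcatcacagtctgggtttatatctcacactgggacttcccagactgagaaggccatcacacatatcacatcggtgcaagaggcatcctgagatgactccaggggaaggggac
Gm42283 (chr4:47494806-47495105, GRCm38.p6, minus strand): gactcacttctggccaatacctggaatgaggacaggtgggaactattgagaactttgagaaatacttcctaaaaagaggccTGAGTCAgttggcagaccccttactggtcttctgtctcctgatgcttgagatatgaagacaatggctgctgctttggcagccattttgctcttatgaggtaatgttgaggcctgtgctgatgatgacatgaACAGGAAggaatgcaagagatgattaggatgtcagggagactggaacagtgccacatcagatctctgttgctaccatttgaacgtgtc
Gm41309 (chr15:38602237-38602536, GRCm38.p6, minus strand): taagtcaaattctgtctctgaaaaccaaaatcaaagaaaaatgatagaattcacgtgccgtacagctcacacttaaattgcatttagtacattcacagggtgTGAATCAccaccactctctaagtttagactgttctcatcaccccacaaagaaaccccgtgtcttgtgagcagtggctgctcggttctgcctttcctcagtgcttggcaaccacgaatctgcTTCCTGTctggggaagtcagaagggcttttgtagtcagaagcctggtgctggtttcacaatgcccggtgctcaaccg

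The member around the Gm40007 start was 444 bp wide (chromosome 2, 172276115 to 172276558) and was covered over all its bases by H3K18ac and H4K8ac regions. Regions of H3K9ac, H3K14ac, H3K23ac and H2AK5ac overlapped it as well, and the nearest H3K4me3 region lay 16.5 kb away. The member at Gm41309 (chromosome 15, 38602213 to 38602680, 468 bp) was likewise met by all 4 of these other lists and lay 15.5 kb from H3K4me3. The member at Gm34948 (chromosome 2, 103896166 to 103896577, 412 bp) was met by 3 of the 4, all but H3K9ac. The member at Gm42283 (chromosome 4, 47494778 to 47495142, 365 bp) was met by H3K14ac alone. Of all 25 windows wholly inside members, 5 lay in members met by all 4 of the other acetylation lists, 7 by 3, 7 by 2, 5 by 1 and 1, at Gm12092, by none of them.

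The steps of the rule were as follows, and they chose the members, so they are descriptions. Of the H3K27ac regions, 89612 (79.7%) were more than 2 kb from gene ends. Among these distal regions, 62650 (69.9%) overlapped H3K18ac, 56953 (63.6%) overlapped H4K8ac and 49922 overlapped both. Of the last, 15304 (30.7%) overlapped H3K4me3 and 34618 did not. At gene ends, 13936 of the regions with both marks (83.5%) overlapped H3K4me3 and 2748 did not. The distal regions with H3K4me3, the gene-end regions with and without it and the whole H3K27ac list are used for comparison in what follows, as are 37458 other distal regions without H3K4me3, which lacked H3K18ac, H4K8ac or both. H3K18ac regions covered a median of 89.3% of a member's bases and H4K8ac regions 76.3%. Close to the limits of the rule, 237 members lay within 200 bp beyond the 2 kb limit, 236 regions that otherwise met the rule lay within 200 bp inside it, and 578 members had an H3K4me3 region 100 bp away or less.

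Members were narrower than regions with H3K4me3 and wider than the H3K27ac list as a whole. Their median width was 220 bp (interval 218 to 221 bp), against 322 bp in distal regions with H3K4me3, 201 bp in gene-end regions without it, 388 bp in gene-end regions with it, 115 bp in the other distal regions without H3K4me3 and 192 bp in the whole list. Together they covered 8.35 Mb, and 5.34% had the smallest width in the list, 108 bp, against 20.004% of the whole list. Overlap with 2 other lists is part of the rule, so width is not independent of it. The widest member, 1283 bp (chromosome 15, 25435986 to 25437268), lay 22.2 kb from Basp1, which encodes a membrane-associated signalling protein. The next were 1101 bp inside Lrrc20 (chromosome 10, 61536085 to 61537185) and 1090 bp at 91.5 kb from Arhgap12, a gene for a GTPase-activating protein. They were followed by 1049 bp inside Sema4d, a semaphorin gene (chromosome 13, 51777221 to 51778269), and 1007 bp at 115 kb from Fam43a (chromosome 16, 30718040 to 30719046). Apart from those near Basp1 and in Lrrc20, these widest members met all 4 other acetylation lists.

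The 4 lists that the rule did not use differed in how often they met members. H3K9ac, an acetylation known best from active promoters, overlapped 21.5% of members (interval 21.1 to 21.9%), against 60.5% of distal regions with H3K4me3, 26.2% of gene-end regions without H3K4me3, 81.0% of gene-end regions with it and 28.1% of the whole list. H3K23ac gave much the same order, with 26.1% of members (25.7 to 26.6%), 63.8% of distal regions with H3K4me3, 27.6% and 80.6% of gene-end regions without and with it, and 31.0% of the whole list. For both marks the share at members was closer to that of gene-end regions without H3K4me3 than to that of distal regions with it. Both lay a little under the share of the whole list. Both were well above the share in the other distal regions without H3K4me3, of which H3K9ac overlapped 3.16% and H3K23ac 5.41%.

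H3K14ac and H2AK5ac were above the whole list at members. H3K14ac, whose list was by far the longest, overlapped 75.2% of members, 88.2% of distal regions with H3K4me3, 62.7% and 86.9% of gene-end regions without and with it, and 63.8% of the whole list. H2AK5ac overlapped 42.1% of members (41.6 to 42.7%), 62.1% of distal regions with H3K4me3, 38.5% and 41.7% of gene-end regions without and with it, and 31.4% of the whole list. In the other distal regions without H3K4me3 the shares were 39.5% for H3K14ac and 9.25% for H2AK5ac. Unlike H3K9ac and H3K23ac, H2AK5ac was thus as frequent at members as at gene-end regions with H3K4me3, within 1 percentage point.

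These shares were higher in wider members, and the part of width in them was not tested beyond a comparison within 1 width class. H3K9ac overlapped 7.36% of members of 108 bp, 13.4% of those of 109 to 200 bp, 24.9% of those of 201 to 400 bp and 44.7% of wider ones. Within 201 to 400 bp, the shares for H3K9ac were 24.9% of members, 55.9% of distal regions with H3K4me3, 29.3% and 74.7% of gene-end regions without and with it, 4.95% of the other distal regions without H3K4me3 and 35.7% of the whole list. For H2AK5ac within the same widths they were 51.1% of members, 62.6% of distal regions with H3K4me3, 50.7% and 35.2% of gene-end regions without and with it, 18.3% of the other distal regions without H3K4me3 and 45.8% of the whole list. At matched width, H2AK5ac was therefore more frequent at members than at gene-end regions with H3K4me3, and H3K9ac less frequent. For H3K14ac within these widths they were 84.1% of members, 88.9% of distal regions with H3K4me3, 74.6% and 84.7% of gene-end regions without and with it, 64.4% of the other distal regions without H3K4me3 and 81.5% of the whole list. For H3K14ac, members thus lay within 3 percentage points of the whole list and of gene-end regions with H3K4me3, and above both classes of regions that lacked H3K4me3.

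**Figure D1:**
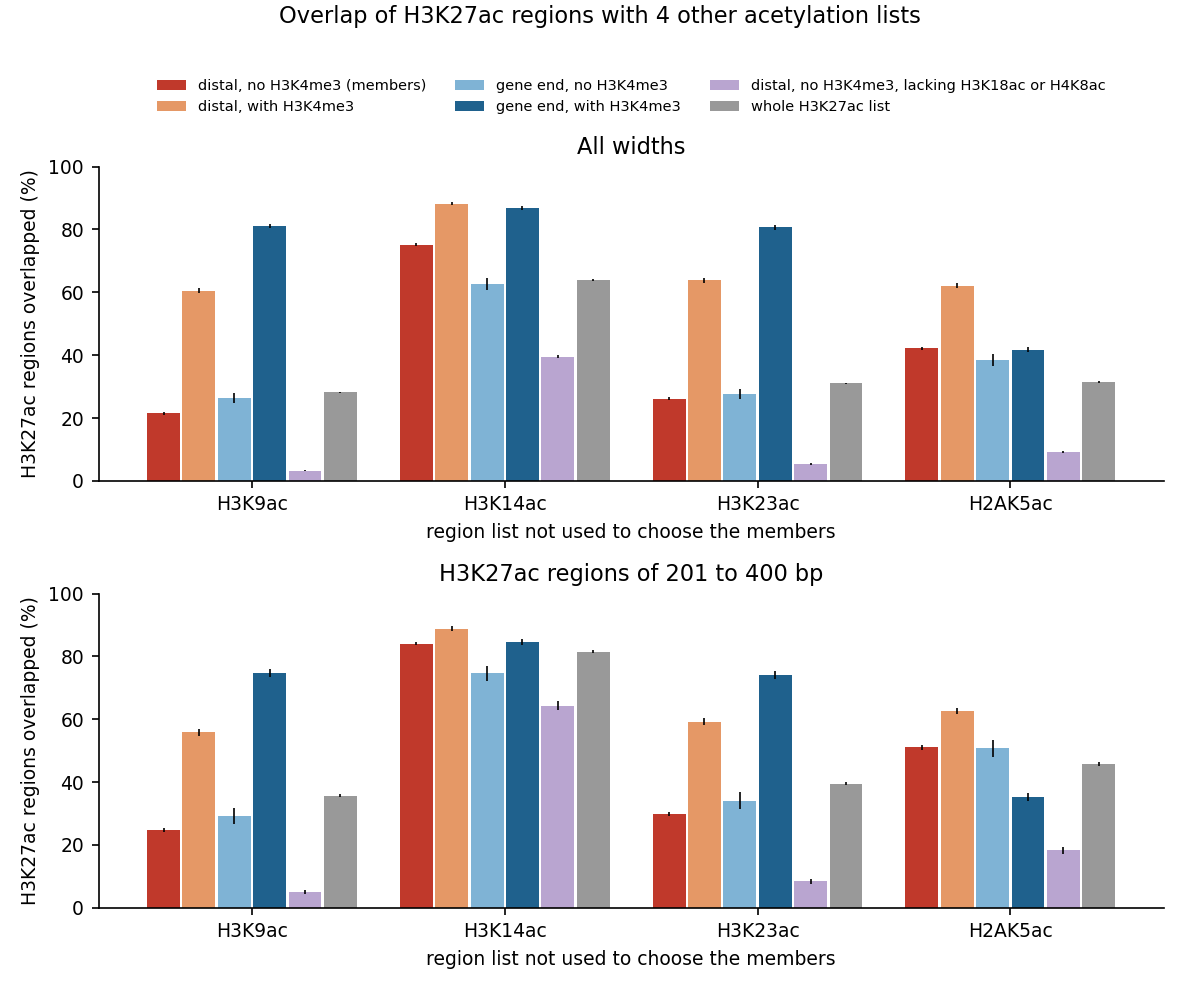
Share of H3K27ac regions (%, y axis) overlapped by each of 4 region lists (x axis), for members, 4 comparison classes and the whole H3K27ac list, over all widths (top) and for regions of 201 to 400 bp (bottom). Bars are shares and lines 95% Wilson intervals for counting error. H3K9ac and H3K23ac are lower at members than in the regions with H3K4me3 and far above the distal regions that lack H3K18ac or H4K8ac in both panels, while H2AK5ac at members is level with gene-end regions with H3K4me3 over all widths and above them at matched width.

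Many of the overlaps were with regions of the smallest width a list held, which 61.1% of H3K9ac regions, 75.9% of H3K23ac regions, 76.1% of H2AK5ac regions and 80.9% of H3K14ac regions had. With wider regions of the other list alone, H3K9ac overlapped 7.06% of members, 41.0% of distal regions with H3K4me3, 68.7% of gene-end regions with it and 17.5% of the whole list. H2AK5ac then overlapped 17.3% of members, 39.4% of distal regions with H3K4me3, 14.8% of gene-end regions with it and 13.4% of the whole list. The order of these 4 groups was kept for both marks. The levels of the shares depend on this choice, which was made after the data were seen.

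Members differed from each other in how many of the 4 lists met them. None did at 4873 members (14.1%), 1 at 35.7%, 2 at 28.5%, 3 at 14.6% and all 4 at 2466 members (7.12%), against 35.7% with all 4 among distal regions with H3K4me3 and 11.4% in the whole list. The commonest combination was H3K14ac alone (28.1% of members), followed by H3K14ac with H2AK5ac (16.5%). Median width was 159 bp with none of the lists and 320 bp with all 4. H3K9ac and H3K23ac came together: H3K9ac overlapped 41.0% of the members that had H3K23ac and 14.6% of those without. H2AK5ac overlapped 60.01% of members with H3K23ac and 35.8% of those without.

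Distance from H3K4me3 separated the marks. With increasing distance to the nearest H3K4me3 region, H3K9ac overlapped 34.9% of members up to 1 kb away, 28.6% at 1 to 5 kb, 17.9% at 5 to 20 kb, 14.9% at 20 to 100 kb and 11.6% beyond 100 kb. H3K23ac ran in the same direction, at 39.9%, 34.8%, 22.7%, 17.8% and 15.4% over the same 5 bins. H3K14ac ran the other way in the 2 outer bins, with 72.7%, 73.0%, 72.3%, 80.4% and 88.0%. H2AK5ac stayed between 38.9% and 47.8%. Median widths over these bins were 207 to 228 bp and did not fall with distance. The rule fixed only that this distance was above 0. Of all members, 12.7% had an H3K4me3 region within 1 kb and 4.11% had none within 100 kb.

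Members that lay close to each other carried more of the other acetylation. A share of 56.2% of members had another within 10 kb. Members 10 kb or less apart were joined into runs, which gave 22379 runs, of which 15173 held 1 member, 541 held 5 or more and 31 held 10 or more. H3K9ac overlapped 15.9% of members that stood alone, 24.0% in runs of 2 to 4, 33.8% in runs of 5 to 9 and 43.0% in runs of 10 or more. H3K23ac overlapped 19.6%, 28.9%, 41.6% and 49.2%, and H2AK5ac 38.4%, 44.3%, 48.6% and 51.1% over the same sizes. H3K14ac showed no such order, at 74.4%, 75.8%, 76.0% and 73.4%. Members in the longest runs were not wider, with a median of 208 bp, against 224 bp for members that stood alone. Whether runs and closeness to H3K4me3 coincide was not tested.

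**Figure D2:**
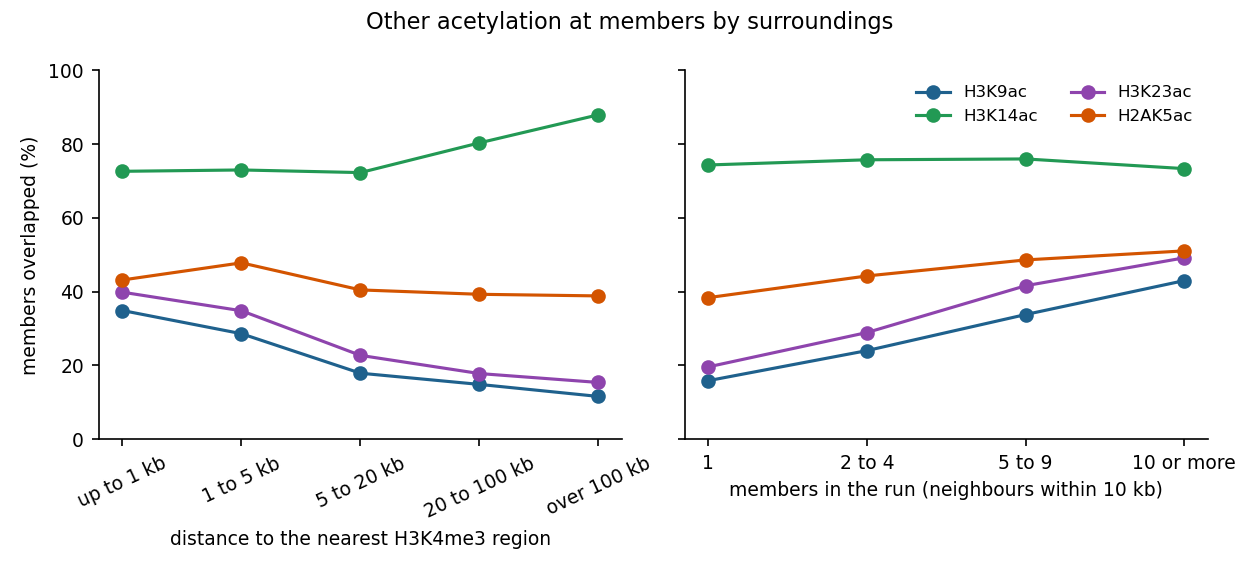
Share of members (%, y axis) overlapped by H3K9ac, H3K14ac, H3K23ac and H2AK5ac regions, by distance to the nearest H3K4me3 region (left, 5 bins) and by the number of members in the run they belong to (right, 4 sizes). Each point is the share over all members of the bin. H3K9ac and H3K23ac fall with distance and climb with run size, H2AK5ac climbs with run size and H3K14ac climbs only at the largest distances.

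The largest run held 20 members over 72.0 kb in Zmiz1 (chromosome 14, 25461510 to 25533459), which encodes a PIAS-like transcriptional coactivator. Of these, 10 met H3K9ac, 17 H3K14ac, 14 H3K23ac and 12 H2AK5ac, and 4 H3K27ac regions with H3K4me3 lay among them. Runs of 17 members followed in Tjp1 (chromosome 7, 65354746 to 65430675), the gene of the tight-junction protein ZO-1, and in 2900026A02Rik (chromosome 5, 113106705 to 113173593). Runs of 15 lay in Map4k4 (chromosome 1, 39868011 to 39953330), the gene of a kinase, and in Asap2 (chromosome 12, 21128998 to 21183110), the gene of an ARF GTPase-activating protein. In these 4, 3 to 6 members met H3K9ac and 6 to 9 met H2AK5ac, so the run in Zmiz1 had the most of both. Each of the 5 runs also held between 3 and 9 H3K27ac regions with H3K4me3.

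In the genome, 56.3% of members (55.7 to 56.8%) lay inside protein-coding genes, against 60.2% of distal regions with H3K4me3 and 62.0% of the whole list. The median distance to the nearest gene end was 29.98 kb for members and 19.9 kb for distal regions with H3K4me3. By distance, 21.6% of members lay 2 to 10 kb from a gene end, 43.3% at 10 to 50 kb, 16.5% at 50 to 100 kb and 18.7% farther. Members inside genes met H3K23ac more often (28.8%) than those between genes (22.7%), and H3K14ac less often (72.5% and 78.6%). Autosomes held 11.8 to 16.1 members per Mb, and chromosome X held 3.73. As a share of the distal H3K27ac regions of each chromosome, members made up 35.9 to 40.3% on autosomes and 37.0% on X, so the low number on X goes with few H3K27ac regions there. H2AK5ac overlapped 31.3% of members on X, below the 40.1 to 45.6% on autosomes. Chromosome Y held 1 member.

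Reads could be followed beside members, but not in them. The count table adds up regions of several lists under 1 identifier, and every member's identifier held 4 to 8 regions, so the counts of members themselves were not used. Instead, reads were taken from 316431 regions of the H3K14ac list that had an identifier of their own and overlapped no other region. Such regions were found on 16 chromosomes and on none of 1, 10, 11, 12 and 13, so the read values leave out the surroundings of members there. The 16 hold 71.4% of members, and 24.6% of all members had such a region within 1 kb. Reads are given as CPM per kb, which are reads divided by all reads of that library in the table (in the usual unit of CPM) and by the region length in kb. A region within 1 kb of more than 1 class was counted in each, so the groups compared can overlap. Within 1 kb of members, H3K27ac had 14.4 CPM per kb, against 22.2 beside distal regions with H3K4me3, 18.7 beside gene-end regions with it and 5.29 over all these regions. H3K18ac had 10.5 beside members, 22.1, 15.2 and 1.85 in the same order, and H4K8ac had 6.31, 16.01, 14.4 and 0.988. H3K4me3 had 1.44 beside members, 8.99 beside distal regions with H3K4me3, 59.1 beside gene-end regions with it and 0.881 over all. These 4 libraries gave the lists that chose the members, so their order is a description.

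The marks outside the rule also had more reads beside members than over all such regions. H2AK5ac had 0.988 CPM per kb beside members (interval 0.964 to 1.014), which was 6.92 times its value over all regions (0.143). It had 1.89 beside distal regions with H3K4me3 and 1.70 beside gene-end regions with it. H3K9ac had 1.10 beside members, 4.93 beside distal regions with H3K4me3, 11.4 beside gene-end regions with it and 0.224 over all. H3K23ac had 0.661 beside members, 2.36, 3.97 and 0.144 in the same order. The reads of these 3 marks lay in few regions. Within 500 bases of members, 4.34% of regions had any H2AK5ac read, 2.96% any H3K9ac read and 5.57% any H3K23ac read. Beyond 20 kb the shares were 0.248%, 0.206% and 0.716%. The intervals do not cover the clumping of reads in few regions. As a ratio of the value beside members to that beside gene-end regions with H3K4me3, H2AK5ac had 0.58, H3K23ac 0.166 and H3K9ac 0.0962. The IgG control had 0.108, between H3K23ac and H3K9ac, so a low ratio alone does not set a mark apart from the control. H3K14ac had 15.9 beside members, 14.8 beside gene-end regions with H3K4me3 and 13.3 over all, a ratio of 1.07 to the gene-end regions, and all of these regions were of its own list.

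IgG gave 3.08 CPM per kb beside members, 8.37 beside distal regions with H3K4me3, 28.4 beside gene-end regions with it and 4.72 over all. These reads came from few places: 0.082% of regions beside members and 0.072% of all had any IgG read. IgG thus was not higher beside members than elsewhere within 1 kb, although it was within 500 bases (1.12 times the value over all).

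With distance from the nearest member, H2AK5ac reads were 1.29 CPM per kb up to 500 bases away, 0.65 at 0.5 to 1 kb, 0.445 at 1 to 2 kb, 0.294 at 2 to 5 kb, 0.203 at 5 to 20 kb and 0.062 farther away. H3K27ac reads were 15.7, 12.96, 11.8, 10.2, 6.98 and 3.71 over the same distances. H3K4me3 reads did not fall steadily with distance, with 1.74, 1.11, 1.38, 1.79, 1.43 and 0.595. The share of regions with any H3K4me3 read was highest next to members. It was 7.70% up to 500 bases away, 4.22% at 0.5 to 1 kb and 1.73% beyond 20 kb. Members overlap no H3K4me3 region by the rule, and the regions read here overlap no other listed region, so this is a description. From the nearest to the farthest bin, H2AK5ac reads thus fell by a larger factor than those of H3K27ac, whose list chose the members. This was not particular to H2AK5ac. H4K8ac (7.52 and 0.346), H3K18ac (12.3 and 0.839), H3K9ac (1.43 and 0.0768) and H3K23ac (0.779 and 0.0703) also fell by a larger factor, and H3K14ac by a smaller one.

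**Figure D3:**
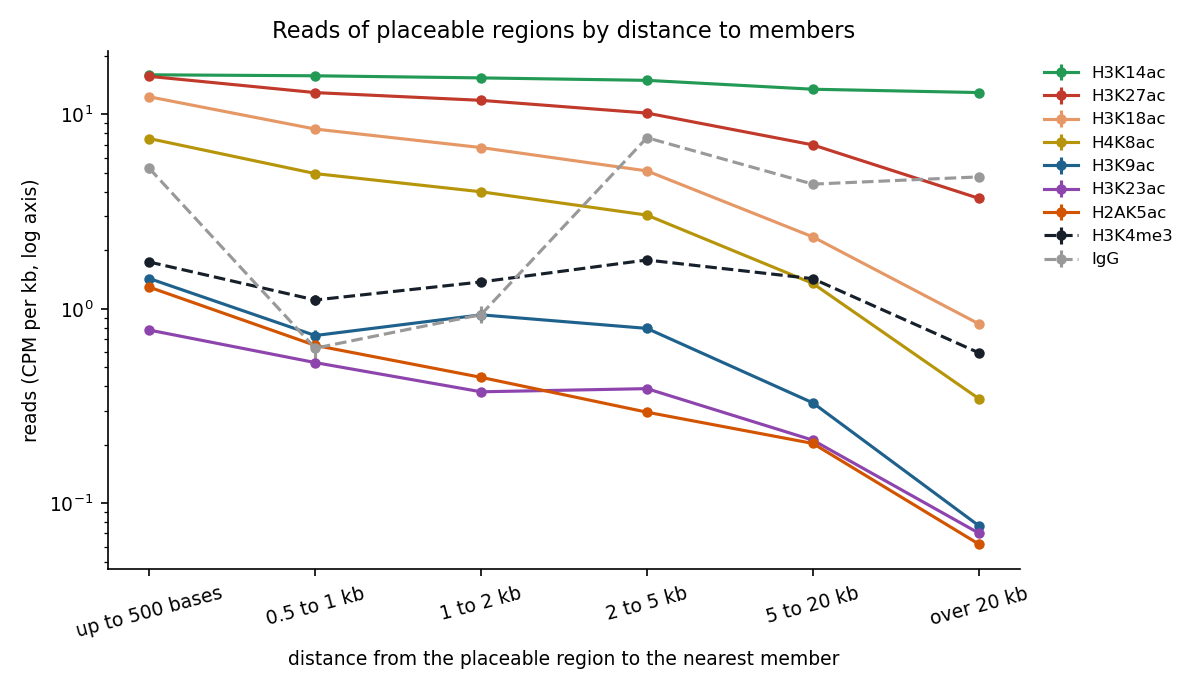
Reads (CPM per kb, log axis) of 9 libraries in placeable regions of the H3K14ac list by distance to the nearest member (x axis, 6 bins). Points are summed reads over all regions of a bin and lines on them exact 95% Poisson intervals, most smaller than the point. Every acetylation mark is lower beyond 20 kb than within 500 bases, H3K14ac by the least (12.97 and 16.0 CPM per kb), and H3K9ac and H3K23ac each go up at 1 step on the way. H3K4me3 stays between 1.11 and 1.79 up to 20 kb, and IgG follows no order.

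Around genes, members were common: 65.3% of 21887 protein-coding genes had 1 or more within 50 kb of their span, and 27.2% had 1 or more in the span itself. Long genes held the most in their span. Pde4d, the gene of a cAMP phosphodiesterase, held 57 members over 1302 kb, Ptprm, a receptor phosphatase of cell contacts, 49 and Asap1, an ARF GTPase-activating protein, 38. Arhgap26, Magi1 and Maml2 held 36 each, Nav2 34, and Dock9, Elmo1 and Gnaq 33 each. Magi1 encodes a junctional scaffold, Maml2 a Notch coactivator, Elmo1 and Dock9 act on small GTPases, and Gnaq encodes a G-protein subunit. Per 100 kb of the span with 50 kb on each side, Gnaq (10.4), Asap1 (10.4) and Dock9 (9.46) were the densest of the 10 and Pde4d (4.14) the least dense. All but Pde4d had an H3K4me3 region within 2 kb of an annotated end.

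Genes with a member nearby also had H3K4me3 at their ends more often, at every length. Of genes under 10 kb, 65.8% of those with a member within 50 kb had H3K4me3 at their ends, against 27.01% of those without, and 61.5% of all genes had it. For genes of 10 to 30 kb the shares were 77.3% with and 51.2% without a member. For genes of 30 to 100 kb they were 79.2% and 48.1%, and for longer ones 75.4% and 36.5%. H3K4me3 at gene ends and members nearby thus occurred together. This was not particular to H3K4me3, since H3K27ac at gene ends differed in the same direction at every length. Its shares were 70.0% with and 26.4% without a member under 10 kb, and 74.0% and 25.8% over 100 kb.

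Endothelial and angiogenic genes had more members around them than the 21887 genes as a whole, which averaged 2.40 ± 3.44 (SD over genes) in the span plus 50 kb on each side. The 24 angiogenic growth genes averaged 7.67 ± 5.07, with members at 24 of 24. The 35 endothelial identity genes averaged 6.06 ± 4.32, with members at 32 of 35, where the share over all genes was 65.3%. Igf1r, a growth factor receptor, had 19 members, Notch1, which restrains sprouting, 17 and Nrp2, a VEGF-C co-receptor, 16. Emcn, an endothelial sialomucin, and the ETS factors Ets1 and Fli1 had 15 each. Ets1 and Fli1 lie side by side and share part of their surroundings, so a member can be counted for both. The endothelial genes with none were Tie1, Clec14a and Ramp2, named because they are the exceptions. All 3 had H3K4me3 at their ends, and the nearest member of Tie1 was 97.6 kb away.

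Other lists of active genes divided. The 22 immediate-early genes, which are switched on within minutes of a stimulus, averaged 4.77 ± 2.86, with members at 21 of 22. Dusp1, a MAP kinase phosphatase, had 11 members, Ier5 10 and the AP-1 subunit Fosl2 9. These genes are short, and only 3 of the 22 had a member in the span. In the span alone they had 0.252 times the mean of all genes, below it where the wider window was above it. The 19 arterial, venous and lymphatic genes averaged 4.00 ± 3.06, led by Lyve1, a lymphatic hyaluronan receptor, with 13 members, Pdpn with 7 and Cxcl12 with 6. The 22 housekeeping genes averaged 2.36 ± 1.56, with Actb, Rplp0 and Rps3 at 5 each, although 22 of 22 had H3K4me3 at their ends. In this list, H3K4me3 at gene ends thus went with about as many members as the average gene had, or 1.36 times as many per 100 kb, since the genes are short.

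Of the themes in the series title, vascular growth is covered by the angiogenic list above, while cystine use and histone acetylation were nearer to the average of all genes. The 32 genes of cystine, cysteine and glutathione averaged 2.72 ± 2.14, with members at 28. That was 1.13 times the mean of all genes in the span plus 50 kb, 1.40 times per 100 kb and 0.521 times in the gene span alone, so the direction turned with the window. Txn2, the mitochondrial thioredoxin, had 8, Gclc, which makes the glutathione precursor gamma-glutamylcysteine, 7 and Txnrd1, a thioredoxin reductase, 7. The 29 genes of acetyl-CoA supply and histone acetylation averaged 2.21 ± 2.66, with members at 22, and Kat6b, an acetyltransferase gene, had 13, Pdk2 7 and Dlat 5. For lung vessels, the 19 lung capillary genes averaged 2.32 ± 2.33, with Adgrl2 at 9, Apln at 7 and Tmem100 at 4, which was 0.964 times the mean of all genes and 1.14 times per 100 kb.

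Markers of other lung cells, which the isolated cells could include, averaged fewer members than the 2.40 of all genes, though per 100 kb lung epithelium (1.17 times) and mesenchyme (1.006 times) were not below all genes. The 21 lung epithelium genes averaged 2.10 ± 2.00, with Krt18 and Krt8, keratin genes that share their surroundings, at 6 each and Cdh1 at 5. The 20 mesenchyme genes averaged 1.95 ± 2.31, with Cspg4 at 8, Dcn at 6 and Acta2 at 5. The 21 leukocyte genes averaged 1.43 ± 1.47, with Itgam at 6 and Cd4 and Cd79a at 3 each. The 20 neuronal genes averaged 2.55 ± 2.11 (Syt1 8, Rbfox3 6, Elavl4 5), and the 22 genes of liver, pancreas and muscle 0.909 ± 1.41 (Hnf4a 5, Acta1 3, Cpa1 3). H3K4me3 lay at the ends of 32 of 35 endothelial genes, 8 of 21 lung epithelium genes, 6 of 20 mesenchyme genes and 8 of 21 leukocyte genes. The part of other cells in the members was not tested. Per 100 kb, the endothelial list had 2.66 times and the immediate-early list 2.86 times the mean of all genes, while the neuronal list had 0.815 times and the leukocyte list 0.729 times.

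**Figure D4:**
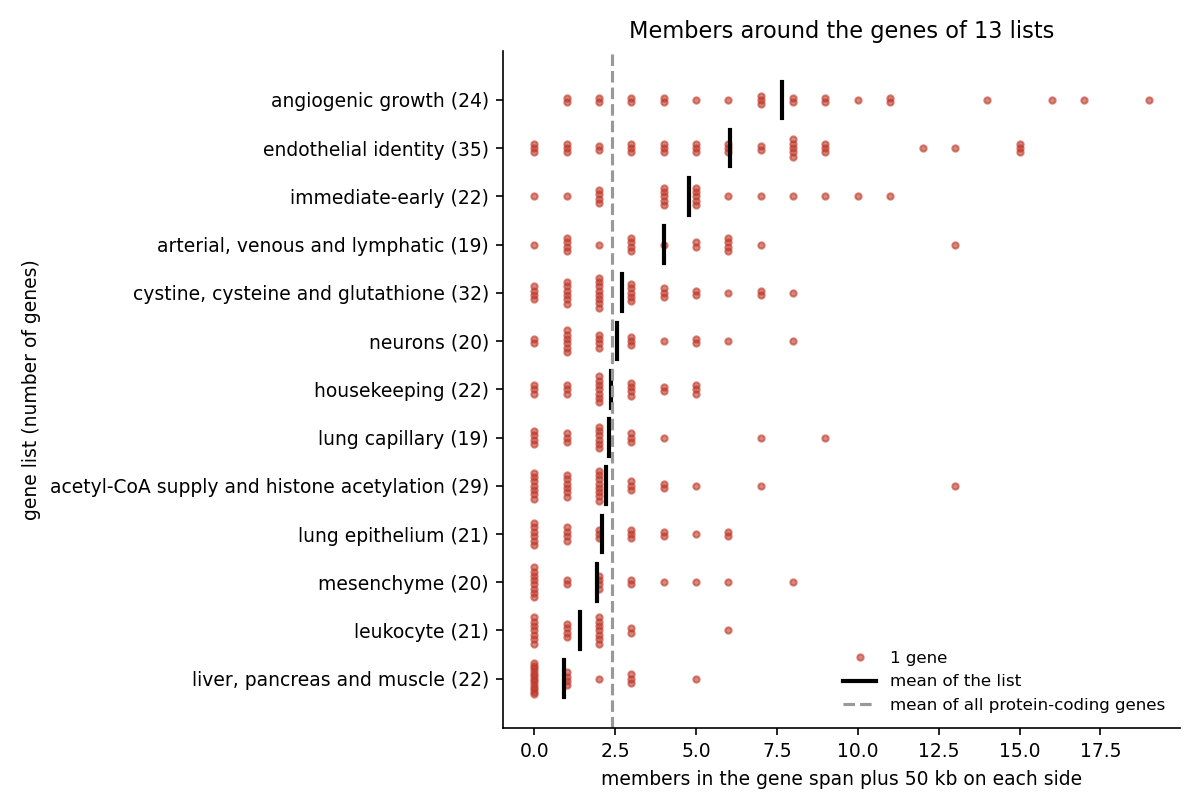
Members in the gene span plus 50 kb on each side (x axis) for the genes of 13 lists (y axis, number of genes in brackets). Points are genes, thick bars list means and the dashed line the mean of all protein-coding genes, 2.40. Angiogenic growth and endothelial identity genes lie highest, and liver, pancreas and muscle genes lowest.

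Among 10 genes of vessels and of the study's pathway, Kdr, the main VEGF receptor (gene ID 16542, chromosome 5, 75932827 to 75979072), had 9 members in and around it, of 139 to 261 bp, and 4 of them lay inside the gene. The widest (75969991 to 75970251) lay 8.82 kb from the gene end and met H3K14ac and H2AK5ac. Of the 9, 2 met H3K9ac, 4 H3K14ac, 3 H3K23ac and 4 H2AK5ac, and none was met by all 4 lists. The members of Kdr were thus at most 261 bp wide.

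Cdh5, the gene of VE-cadherin (gene ID 12562, chromosome 8, 104101613 to 104144504), had 8 members of 126 to 475 bp. Counted separately, each of the 4 lists met 5 of the 8, but not always the same 5. The widest (104175891 to 104176365) lay outside Cdh5, inside its neighbour Bean1, and H3K14ac covered all of its 475 bp, H3K23ac 443, H3K9ac 335 and H2AK5ac 129. Eng, a TGF-beta co-receptor (gene ID 13805, chromosome 2, 32646595 to 32682669), also had 8. Its widest, 594 bp (32714900 to 32715493), lay 2.12 kb from Cdk9 and was covered whole by H3K18ac and H3K23ac. At Cdh5 and Eng the widest members thus carried all 4 other marks and lay nearest to, or in, another gene.

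Erg, an ETS factor (gene ID 13876, chromosome 16), had 8 members, all 8 with H3K14ac and 2 with H3K9ac. Flt1, the decoy VEGF receptor (gene ID 14254, chromosome 5), had 8, of which 5 met H3K14ac, 3 H2AK5ac and none H3K9ac or H3K23ac. Tek, the angiopoietin receptor, had 4, of which 3 met H3K14ac and none any of the other 3 lists. Pecam1, an adhesion molecule of endothelial junctions, had 6, of which 3 met H3K9ac, 4 H3K14ac, 1 H3K23ac and 4 H2AK5ac. Over all members these lists met 21.5%, 75.2%, 26.1% and 42.1%, and differences between genes with so few members were not tested. The widest member of Erg was 376 bp (95352235 to 95352610), that of Flt1 426 bp (147736729 to 147737154), that of Tek 361 bp (94787610 to 94787970) and that of Pecam1 452 bp (chromosome 11, 106677869 to 106678320).

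Sox17, an arterial transcription factor, had 1 member, of 360 bp and 29.9 kb away (chromosome 1, 4527374 to 4527733). Vegfa, the growth factor itself, had 4, the widest of 553 bp (chromosome 17, 46073730 to 46074282), which lay nearest to Mrps18a. Slc7a11, the cystine importer (gene ID 26570, chromosome 3, 50364936 to 50499087), had 4, of which 3 lay inside the gene. Its widest (50434185 to 50434571, 387 bp) met all 4 lists and was covered whole by H3K18ac and H3K14ac. Slc7a11 was the only one of these 10 genes with no H3K4me3 region at its annotated ends. Inside the gene, however, an H3K4me3 region lay 1.48 kb from the member at 50436571 to 50436711.

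Few members held an annotated transcript start: 233 members (0.673%, interval 0.592 to 0.765%) did, against 6.82% of distal regions with H3K4me3, 0.35% of the other distal regions without H3K4me3, 50.2% of gene-end regions with it and 8.12% of the whole list. The rule keeps members away from the ends of protein-coding genes, so the gap to gene-end regions and to the whole list follows from it. They held 258 starts of 233 genes, and 209 of the starts were of lncRNAs and 49 of protein-coding genes, these 49 being starts away from the outer gene ends. Of the start windows, 213 had at least 150 bases in members. Their median GC content was 51.3% with 5 CpGs, against 60.7% and 19 CpGs in 1084 windows at distal regions with H3K4me3, 63.3% and 24 CpGs in 8174 windows at gene-end regions with it, and 52.7% and 7 CpGs over all 32851 windows. Starts in members thus had fewer CpGs than starts with H3K4me3, but the kind of gene differed as well. Of the 213 windows at members 166 were of lncRNAs, against 701 of the 8174 at gene-end regions with H3K4me3. Among lncRNA windows alone the median was 5 CpGs at members and 4 over all, and the mean 5.63 and 7.01.

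The AP-1 letters TGANTCA were in 36.6% of the windows at members (78 of 213, interval 30.4 to 43.3%), against 9.41% at distal regions with H3K4me3, 4.10% at gene-end regions with it and 7.81% of all windows. Among lncRNA windows alone they were in 39.2% at members and 9.31% of all. Among windows of 45 to 55% GC they were in 42.1% at members and 9.53% of all, so the difference was as large among lncRNAs and within this GC range. The windows wholly inside members held them in 13 of 25 cases, of which Gm34948, Gm40007, Gm42283 and Gm41309 are printed above. AP-1 is a dimer of FOS and JUN proteins that responds to growth factors and stress. A match describes the letters and is no record of binding, and these windows are a small and selected sample, since few members hold an annotated start. Some windows overlap each other, as those of Gm38424 do, and each was counted. The intervals treat windows as separate and may thus be too narrow.

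Other motifs differed less from all windows, each searched on both strands. The ETS letters ACAGGAA were in 22.1% of windows at members, 11.1% at distal regions with H3K4me3, 6.30% at gene-end regions with it and 8.67% of all. The longer ETS form CCGGAAG, common in CpG-rich promoters, was in 7.51% at members, 12.4%, 22.9% and 8.86% in the same order. Its interval at members, 4.68 to 11.9%, includes the share of all windows. Among lncRNA windows it was in 8.43% at members (5.09 to 13.7%) and 3.89% of all. Among windows of 45 to 55% GC it was in 7.14% at members (3.93 to 12.6%) and 6.10% of all, which lies within the interval. TGACGT, the CREB core, was in 3.76% at members, 11.3%, 14.5% and 7.51%. The E-box CAGATG, bound by TAL1 with its partners, was in 26.8% at members and 17.2% of all windows. AGATAA, the core bound by GATA2 and its relatives, was in 15.02% of windows at members and 11.2% of all windows. The SOX core AACAAT was in 15.02% of windows at members and 10.7% of all windows. For these last 2 the intervals at members, 10.8 to 20.4% each, include or come close to the share of all windows. Of the 2 ETS forms, the one without CpG was the more frequent at members. Among windows of 45 to 55% GC, ACAGGAA was in 35 of 140 at members and 11.5% of all, and CAGATG in 31.4% and 22.2%.

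Of the remaining motifs, GGAATG (TEAD, which can share GGAA with ACAGGAA) was in 23.5% of windows at members and 14.7% of all, CAGCTG (another E-box) in 24.9% and 16.3%, and TGACNNNGC (NRF2, which can overlap TGANTCA) in 19.2% and 12.4%. Among windows of 45 to 55% GC, GGAATG was in 18.6% at members and 18.5% of all, CAGCTG in 28 of 140 and 18.6%, and TGACNNNGC in 22.9% and 12.1%. TGTTTAC (FOX) was in 6.10% and 3.65%, TGATGNAA (ATF4) in 6.10% and 3.97%, the MEF2 motif in 4.23% and 3.69%, and GGGNNTTCC (NF-kB) in 6.10% and 5.82%. GGGTGG (KLF) was in 31.9% and 31.5%, ACGTG (HIF) in 20.2% and 19.6%, CCAAT in 29.1% and 37.4%, and the CTCF motif in 0.469% and 0.14%. Of the 18 motifs searched, TGANTCA had the largest ratio between windows at members and all windows. The interval at members lay above the share of all windows for 7 motifs, and above that of all windows of 45 to 55% GC for 4, those of AP-1, ETS (ACAGGAA), TAL1 (CAGATG) and NRF2.

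**Figure D5:**
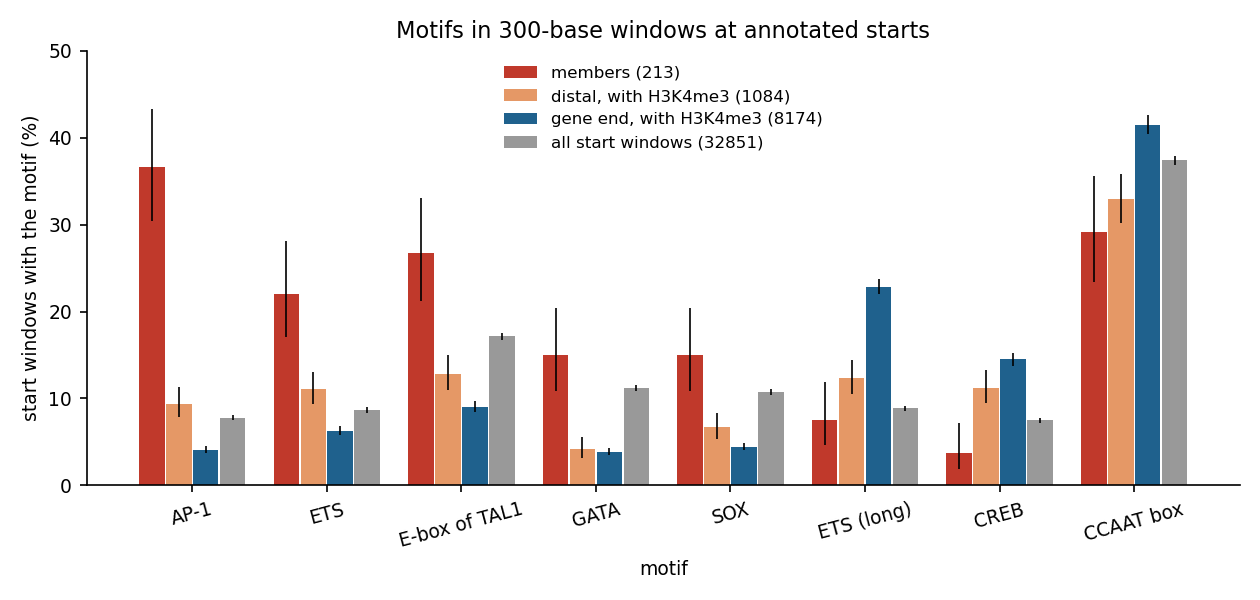
Share of 300-base windows at annotated starts (%, y axis) that hold each of 8 motifs (x axis), for windows with at least 150 bases in members, in distal regions with H3K4me3 or in gene-end regions with H3K4me3, and for all windows (number in brackets). Lines are 95% Wilson intervals. TGANTCA (AP-1) is at 36.6% in windows at members and at 7.81% over all windows. The longer ETS form and CREB are lower at members than in the other sets drawn. For the longer ETS form, the interval at members includes the share of all windows.

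Hairpins of 12 of 1005 annotated microRNAs overlapped members. Of these, 4 (Mir344d-2, Mir344d-3, Mir344c and Mir344) are of 1 family on chromosome 7, between 61685272 and 61877864. Copies of 1 family can share reads, so these regions are uncertain. The others, such as Mir6353 and Mir7018, lay on other chromosomes.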

How the data were processed

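The authors deposited 1 table of read counts, made with featureCounts 2.0.6 per the file headers, in which mates were counted singly, strand was ignored and a read on several identifiers was dropped. The submitters' processing notes name STAR and MACS2 and the builds GRCm38.p6 and mm10. Their settings, the removal of duplicates and whether IgG entered the peak calls were not given in the sources used here. PCR reads without molecular identifiers are not independent molecules, so intervals cover counting error only.

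The identifiers of the table join 8 numbered region lists. The lists were separated so that each runs in genome order with its commonest width as the smallest, apart from 1 narrower H3K14ac region. This left 0 identifiers out of order, and 2662 of 1309635 regions differed from a separation by order alone, none of them in the H3K27ac list. The separation was tried on simulated lists that were fewer, far shorter and more evenly spread than those of the data. It therefore does not show how well regions were separated where the lists crowd together. The counting of overlaps and distances was checked on small simulated intervals. Each list is called by the mark whose library had the highest fitted density in it. Overlap means at least 1 shared base. Of member bases, 5.12% were shared with no other list, so counts of members were not used, and the planned reads beside members came from regions that could be placed. A further 713 regions met the rule on other reference sequences and were left out.

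Genes came from NCBI RefSeq (GRCm38.p6), without strand. Windows at starts and microRNA hairpins came from RefSeq as well. Intervals of shares are Wilson intervals and those of reads exact Poisson intervals, from Python 3.11.15 with scipy 1.17.1. The members and lists were chosen with earlier results of these data known. Named were the 10 genes with the most members in their span, the 3 genes with the most members of each of 13 gene lists, a panel of 10 genes, the 5 widest members, the 5 runs with the most members and the widest member at each panel gene. Motifs were searched in start windows, a choice made after the files were seen, because the sequence of members was not used here.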

Additional observations from a re-analysis of the deposited data

How the results depend on the processing

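The number of members stayed within 1.5 times of 34618 under all 8 alternatives, from 26491 with at least 50% of the region overlapped to 35868 with a limit of 1 kb from gene ends. With 50% overlap, H3K9ac met 24.8% of members, H3K14ac 77.0%, H3K23ac 29.9% and H2AK5ac 46.3%, 57.1% lay inside genes and the median width was 216 bp. With regions above the smallest width alone, these shares were 22.3%, 76.9%, 27.05% and 43.7% and the width 226 bp. Without H3K4me3 within 1 kb, H3K9ac met 19.5% and H3K23ac 24.1%, 55.4% lay inside genes and the width was 222 bp. At 5 kb from gene ends, H3K9ac met 21.0% and H3K14ac 76.0%. The share inside genes was 58.4% with the ends of all annotated genes and 55.1% on all reference sequences, an alternative chosen after seeing the data. When the other list had to cover 50% of a member, H3K9ac met 14.9%, H3K14ac 62.8%, H3K23ac 18.5% and H2AK5ac 25.1%. With only its wider regions, chosen after seeing the data, the shares were 7.06%, 55.8%, 9.15% and 17.3%. Lists separated by order alone gave the same values to 3 digits. Within 5 kb of another member lay 39.1% of members, and within 25 kb 77.2%.

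As ratios to all genes, members within 100 kb of the span came to 1.02 for lung capillary, 1.00 for housekeeping and 0.991 for neuronal genes, each on the other side of 1 than with 50 kb. Per 100 kb the ratios were 1.14 for lung capillary, 1.36 for housekeeping, 1.17 for lung epithelium, 1.006 for mesenchyme and 0.815 for neuronal genes, also on the other side. In the span alone they were 0.521 for cystine genes and 0.252 for immediate-early genes, on the other side, and 0.252 for housekeeping, 0.317 for lung epithelium, 0.37 for leukocyte, 0.49986 for mesenchyme and 0.0505 for liver, pancreas and muscle genes. Endothelial, angiogenic and arterial, venous and lymphatic lists stayed above 1 in all 3. IgG reads beside members were 1.12 times those of all placeable regions within 500 bases. In windows wholly inside members, AP-1 letters were in 52.0%, a choice made after seeing the data. The causes were not tested.

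No paired analysis was possible because each mark had 1 library. The planned search of members' own sequence was not run. With 1 library per mark, peaks of the smallest width and the depth of each library limit what counts as overlapped, and absence of an H3K4me3 region means only that none was listed.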
